A study of Mus musculus with 11 samples.

Results

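The genes described here are the hypoxia-inducible factors (HIF) and the enzymes that make them respond to oxygen. They were chosen by symbol: the alpha subunits Hif1a, Epas1 and Hif3a, the beta subunits Arnt and Arnt2, the ubiquitin ligase subunit Vhl, the prolyl hydroxylases Egln1, Egln2 and Egln3, and the asparaginyl hydroxylase Hif1an. All 10 had a row among the 53947 of the count table, and 9 passed the filter on low counts. Messenger RNA had been sequenced from aTC1-6 cells, a glucagon-producing mouse alpha cell line, in 4 libraries with METTL3 KD (Mettl3 KD below), 4 with METTL14 KD (Mettl14 KD) and 3 with a scramble control. Cells of every group were transfected at 70% confluency and collected 72 h after knockdown. Every library came from this 1 line, and no source used here gives the knockdown reagent or the oxygen level of the cultures. Mettl3 and Mettl14 are the paired subunits of the enzyme that places N6-methyladenosine on RNA.

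In cells with enough oxygen, prolyl hydroxylases modify the HIF alpha subunits, VHL recognises the hydroxylated protein, and the proteasome destroys it. When oxygen is short, the alpha subunit persists, pairs with ARNT or ARNT2 and switches on genes for glucose uptake, glycolysis and vessel growth. Egln1 and Egln3 are themselves among the genes that HIF switches on, so the enzymes that end the response are made as part of it, whereas Egln2 is not a typical HIF target. HIF alpha is controlled mainly as a protein, so its mRNA is not a measure of its activity. In beta cells of the islet, loss of VHL is known to raise glycolysis and to impair insulin secretion.

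The promoters of the prolyl hydroxylases and of Vhl are printed because Egln1 and Egln3 are described below as HIF-inducible genes, Egln2 is their close relative, and Vhl was the other member that was lower in both knockdowns. The sequences are RefSeq windows on GRCm38.p6, from 250 bases before to 50 bases after the annotated start, 5′ to 3′ on the gene's strand. Capitals mark the core of the HIF binding element, ACGTG or GCGTG on either strand.
Egln1, minus strand, chr8:124949205-124949504: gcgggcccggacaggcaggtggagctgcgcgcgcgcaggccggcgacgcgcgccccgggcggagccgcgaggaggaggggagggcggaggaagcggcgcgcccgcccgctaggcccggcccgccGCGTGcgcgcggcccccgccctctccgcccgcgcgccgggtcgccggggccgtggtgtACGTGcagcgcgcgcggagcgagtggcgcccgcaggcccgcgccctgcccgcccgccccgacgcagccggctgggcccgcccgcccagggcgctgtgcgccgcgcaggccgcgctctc
Egln3, minus strand, chr12:54203825-54204124: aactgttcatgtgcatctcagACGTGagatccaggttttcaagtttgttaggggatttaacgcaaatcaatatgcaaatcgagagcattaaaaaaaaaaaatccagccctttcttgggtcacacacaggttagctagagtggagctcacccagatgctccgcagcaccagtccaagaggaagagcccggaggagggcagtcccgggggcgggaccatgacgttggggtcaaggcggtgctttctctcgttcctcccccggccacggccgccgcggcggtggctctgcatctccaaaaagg
Egln2, minus strand, chr7:27166753-27167052: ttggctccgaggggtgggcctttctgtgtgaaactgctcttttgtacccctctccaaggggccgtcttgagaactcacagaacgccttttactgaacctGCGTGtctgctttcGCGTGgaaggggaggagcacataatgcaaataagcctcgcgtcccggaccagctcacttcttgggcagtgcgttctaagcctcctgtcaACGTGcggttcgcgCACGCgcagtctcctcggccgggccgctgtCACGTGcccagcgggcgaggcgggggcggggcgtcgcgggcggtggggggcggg
Vhl, plus strand, chr6:113623744-113624043: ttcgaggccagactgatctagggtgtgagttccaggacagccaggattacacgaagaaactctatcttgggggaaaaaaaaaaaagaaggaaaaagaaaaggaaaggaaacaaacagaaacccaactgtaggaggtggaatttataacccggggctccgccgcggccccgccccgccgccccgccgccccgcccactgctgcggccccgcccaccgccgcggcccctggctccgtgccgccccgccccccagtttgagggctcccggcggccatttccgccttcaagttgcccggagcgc

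Egln1 had 1 ACGTG and 1 GCGTG in this window, Egln3 had 1 ACGTG, and Vhl had 0 of either. Egln2 had 3 of each in the window shown, where the palindrome CACGTG was read once on each strand. A second annotated start of Egln2 had 1 match. Among the other members with a window, Hif1a had 3 matches, Hif3a 2 and Arnt 1, while Arnt2 and Hif1an had 0. One or other core was present in 43.8% of all 32851 promoter windows of this length, ACGTG in 19.6%, GCGTG in 32.4% and CACGTG in 7.15%. A match describes these letters only, and Egln2, with the most matches, was not among the genes that fell.

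The libraries held 19576632 to 22406527 counts. The targets of the knockdowns were lower in their own groups: Mettl3 stood at 35.8% of scramble in Mettl3 KD and Mettl14 at 58.1% of scramble in Mettl14 KD (adjusted p = 6.86e-11 and 8.78e-09, edgeR quasi-likelihood test, Benjamini-Hochberg adjustment over all genes tested). By the same edgeR test Mettl14 was higher in Mettl3 KD, at 116.2% of scramble (adjusted p = 0.00494). Mettl3 in Mettl14 KD was at 103.3% of scramble and did not pass (adjusted p = 0.692, same test). Levels are given as CPM, counts scaled to a common library total, after TMM normalisation. Of 6 alpha cell markers, the sum was at least 30158 CPM in every library, while the beta cell factor Pdx1 and the pancreatic polypeptide gene Ppy were at 0 in all 11 and Nkx6-1, another beta cell factor, was at 48.9 to 72.0 CPM. The shallowest library, scramble replicate 2, stood apart: the total of 12 lung epithelium and blood markers was at most 6.41 CPM in Mettl3 KD libraries and 5.24 CPM in Mettl14 KD, and it was 134 CPM in this library against at most 4.40 CPM in the other scramble libraries. The alpha cell marker sum was also lowest in scramble replicate 2, at 30158 CPM against 37649 and 37817 CPM in the other scramble libraries. Values without scramble replicate 2 are therefore given beside the results it touches. In bulk RNA, fewer cells of a type and less RNA per cell cannot be told apart.

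In Mettl3 KD, 4 of the 9 members tested fell, namely Egln3, Egln1, Vhl and Arnt2, and 0 rose, where 31.3% of all 14133 genes passed the same test, 15.5% higher and 15.8% lower. In Mettl14 KD, 3 fell, again Egln3, Egln1 and Vhl, and 2 rose, Arnt and Hif1an, where 20.9% of all genes passed, 10.1% higher and 10.8% lower. The libraries of the 4 that fell in Mettl3 KD lay wholly below scramble, as did 17.9% of all genes, while 17.5% lay wholly above. In Mettl14 KD 3 members lay wholly below and 2 wholly above, against 14.6% and 14.4% of all genes. The HIF-inducible hydroxylases had the largest changes of the 9: Egln3 was 2.32-fold lower in Mettl3 KD and 2.54-fold lower in Mettl14 KD than in scramble, and Egln1 was 1.72-fold and 1.64-fold lower. The alpha subunit Hif1a was at 98.6% and 100.5% of scramble and did not pass in either comparison. Both comparisons share the 3 scramble libraries, so their results are not independent of each other.

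**Figure D1:**
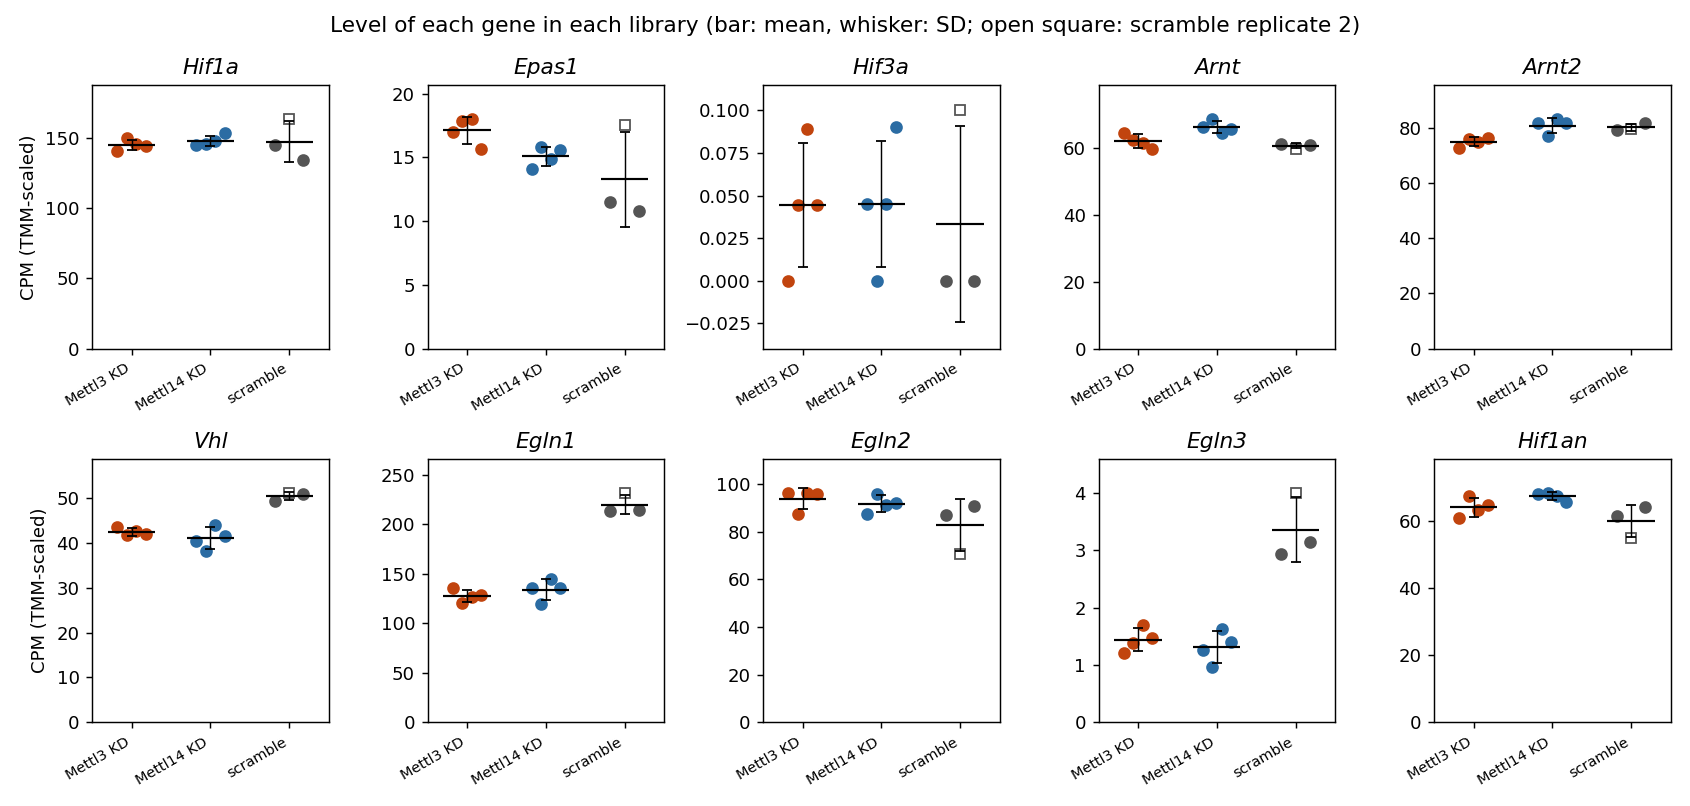
CPM of each of the 10 genes in each library, with Mettl3 KD, Mettl14 KD and scramble from left to right in every panel. Points are libraries, the horizontal bar is the group mean, the whisker is the SD (n = 4, 4 and 3), and the open square is scramble replicate 2. Every knockdown library lies below every scramble library for Egln1, Egln3 and Vhl, and scramble replicate 2 lies apart from the other scramble libraries for Epas1 and Egln2.

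Hif1a encodes the alpha subunit that most cells use for the acute response to low oxygen. It had 141, 150, 146 and 144 CPM in Mettl3 KD libraries, 145, 146, 148 and 153 CPM in Mettl14 KD libraries, and 145, 163 and 134 CPM in scramble libraries. The scramble libraries alone spanned a wider range than all 8 knockdown libraries, and the groups overlapped. The log2 fold change was -0.02 ± 0.05 (SE) in Mettl3 KD and 0.01 ± 0.05 in Mettl14 KD, with adjusted p = 0.782 and 0.938 by the edgeR quasi-likelihood test. Without scramble replicate 2, the highest scramble library, the log2 fold changes were 0.06 ± 0.03 and 0.09 ± 0.03, still short of the threshold (adjusted p = 0.218 and 0.0763, same test). No direction is therefore given for Hif1a. In GENCODE M21 its exons share 330 bases with the antisense gene Gm15283, which had 1 count over all libraries.

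Epas1 encodes HIF-2alpha, the alpha subunit best known from endothelium, lung and the cells that make erythropoietin. Its level was 17.0, 17.8, 17.99 and 15.7 CPM in Mettl3 KD libraries and 14.1, 15.8, 14.9 and 15.6 CPM in Mettl14 KD, against 11.5, 17.6 and 10.8 CPM in scramble. Scramble replicate 2 overlapped the knockdown libraries, and the other scramble libraries lay below all 8 of them. With all libraries the log2 fold change was 0.38 ± 0.14 in Mettl3 KD (adjusted p = 0.0606) and 0.19 ± 0.14 in Mettl14 KD (adjusted p = 0.373), and neither passed the edgeR quasi-likelihood test. With scramble replicate 2 left out, Epas1 was higher in both knockdowns, at 0.62 ± 0.08 (adjusted p = 8.46e-08) and 0.44 ± 0.08 (adjusted p = 9.41e-05, same test). DESeq2, which kept every library, also called Epas1 higher in Mettl3 KD, at 0.37 (adjusted p = 0.0126). Limma-voom with quality weights, which gives less weight to libraries that stand apart, called Epas1 higher in both knockdowns, at 0.56 (adjusted p = 0.000129) and 0.38 (adjusted p = 0.00659). In Mettl3 KD, edgeR with a replicate block (0.40, adjusted p = 0.0288) and edgeR with no filter on low counts (0.38, adjusted p = 0.000101) called it higher too. Neither of these edgeR fits did so in Mettl14 KD (adjusted p = 0.258 and 0.114). DESeq2 made no call in Mettl14 KD, at 0.19 (adjusted p = 0.308). The edgeR fits of only the 2 groups compared made none, with adjusted p = 0.138 for Mettl3 KD and 0.472 for Mettl14 KD. Without scramble replicate 3, the lowest scramble library, the edgeR values were 0.25 in Mettl3 KD (adjusted p = 0.156) and 0.07 in Mettl14 KD (adjusted p = 0.753). Without scramble replicate 1, they were 0.28 (adjusted p = 0.19) and 0.10 (adjusted p = 0.689).

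The library with the high scramble value of Epas1 was the one with the other tissues' transcripts. The summed level of 10 endothelial markers was 5.77 to 10.97 CPM in Mettl3 KD libraries and 5.94 to 7.11 CPM in Mettl14 KD, and it was 18.8 CPM in scramble replicate 2 against 6.66 and 7.31 CPM in the other scramble libraries. The lung epithelium and blood markers summed to 4.20 to 6.41 CPM in Mettl3 KD, 2.34 to 5.24 CPM in Mettl14 KD, and 134 CPM in scramble replicate 2 against 4.40 and 3.05 CPM in the other scramble libraries. The number of markers with a count did not set that library apart: of the 12 lung and blood markers 0 were at 0 in scramble replicates 1 and 2, and of the 10 endothelial markers 0 were at 0 in Mettl14 KD replicates 2, 3 and 4 and in scramble replicate 2. The part of these transcripts in the Epas1 level was not tested.

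**Figure D2:**
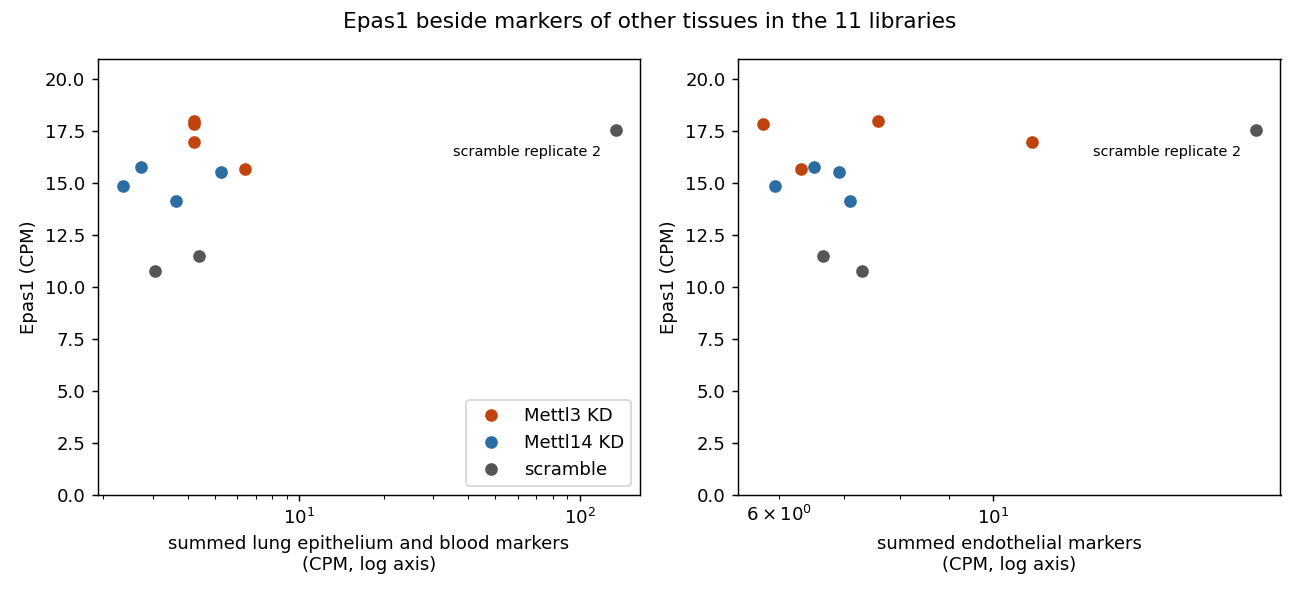
Epas1 (CPM, vertical axes) in the 11 libraries beside the summed CPM of lung epithelium and blood markers (left, log axis) and of endothelial markers (right, log axis). Each point is a library, coloured by group; scramble replicate 2 is at the far right of both panels at 17.6 CPM, and the other scramble libraries are the lowest points at 10.8 and 11.5 CPM.

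Hif3a encodes another alpha subunit, several forms of which lack the main activation domain. It was all but absent from these cells: it had 0, 1, 2 and 1 counts in Mettl3 KD, 1, 0, 1 and 2 counts in Mettl14 KD, and 0, 2 and 0 counts in scramble. The 2 counts in scramble were in replicate 2. Hif3a did not pass the filter on low counts and was not tested.

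The beta subunits pair with every alpha subunit and are not regulated by oxygen. Arnt had 64.5, 62.5, 61.4 and 59.7 CPM in Mettl3 KD libraries, 66.3, 68.5, 64.4 and 65.7 CPM in Mettl14 KD, and 61.3, 59.8 and 60.9 CPM in scramble. Every Mettl14 KD library was above every scramble library, while Mettl3 KD and scramble overlapped. Arnt rose by 0.13 ± 0.04 on the log2 scale in Mettl14 KD (adjusted p = 0.0207, edgeR quasi-likelihood test), a call that ended without Mettl14 KD replicate 2, at 0.11 (adjusted p = 0.066). It was at 0.03 ± 0.04 in Mettl3 KD (adjusted p = 0.559, same test).

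Arnt2, the beta subunit typical of neural and neuroendocrine tissue, had 72.8, 76.0, 74.8 and 76.2 CPM in Mettl3 KD libraries, 81.5, 77.0, 83.0 and 81.5 CPM in Mettl14 KD, and 79.2, 79.5 and 81.6 CPM in scramble. The Mettl3 KD libraries were the lowest of the 11, and Mettl14 KD and scramble overlapped. Arnt2 fell by 0.10 ± 0.04 on the log2 scale in Mettl3 KD (adjusted p = 0.0447) and was lower in Mettl3 KD than in Mettl14 KD by a log2 difference of -0.11 ± 0.03 (adjusted p = 0.0472, both by the edgeR quasi-likelihood test). Both calls were close to the threshold: each held in 3 of the 11 fits that left out 1 library. The call against scramble held without scramble replicate 2, Mettl14 KD replicate 2 or Mettl14 KD replicate 3, and that against Mettl14 KD without scramble replicate 1, scramble replicate 2 or Mettl14 KD replicate 2. The adjusted p by edgeR over the 11 fits was 0.0362 to 0.183 against scramble and 0.0135 to 0.139 against Mettl14 KD, and DESeq2 made neither (adjusted p = 0.0871 and 0.0834). In Mettl14 KD against scramble Arnt2 was at 0.01 ± 0.04 (adjusted p = 0.852, edgeR quasi-likelihood test).

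Vhl encodes the subunit of a ubiquitin ligase that binds hydroxylated HIF alpha. Its level was 43.4, 41.6, 42.6 and 41.9 CPM in Mettl3 KD libraries and 40.4, 38.2, 44.0 and 41.5 CPM in Mettl14 KD, against 49.4, 51.1 and 50.8 CPM in scramble. All 8 knockdown libraries were below all scramble libraries; over all genes, such separation in either direction held for 35.5% of genes in Mettl3 KD and 28.9% in Mettl14 KD. Vhl fell by 0.25 ± 0.04 on the log2 scale in Mettl3 KD (adjusted p = 0.000213) and by 0.30 ± 0.04 in Mettl14 KD (adjusted p = 6.9e-05), which left 84.1% and 81.5% of the scramble level by the edgeR quasi-likelihood test. Without scramble replicate 2 the log2 fold changes were -0.24 ± 0.05 and -0.29 ± 0.05.

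Egln1, also called PHD2, is the main prolyl hydroxylase for HIF-1alpha in most cells and is induced by HIF. It had 135.1, 120.4, 126.5 and 129 CPM in Mettl3 KD libraries and 136, 119, 145 and 136 CPM in Mettl14 KD, against 213, 231 and 214 CPM in scramble. The highest knockdown library was far below the lowest scramble library, and the knockdown groups overlapped each other. Egln1 fell by 0.78 ± 0.06 on the log2 scale in Mettl3 KD (adjusted p = 1.9e-07) and by 0.71 ± 0.06 in Mettl14 KD (adjusted p = 7.5e-07, both by the edgeR quasi-likelihood test). Without scramble replicate 2, which had its highest level, the log2 fold changes were -0.74 ± 0.07 and -0.68 ± 0.07.

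Egln3, or PHD3, is the prolyl hydroxylase that HIF induces most strongly in many cell types. It was a low transcript here, with 1.21, 1.39, 1.70 and 1.47 CPM in Mettl3 KD libraries and 1.27, 0.960, 1.62 and 1.40 CPM in Mettl14 KD, against 2.95, 4.00 and 3.14 CPM in scramble. These levels rest on 27 to 38 counts per Mettl3 KD library, 20 to 36 per Mettl14 KD library and 65 to 80 per scramble library. Every knockdown library was below every scramble library, and the knockdown groups overlapped each other. Egln3 fell by 1.22 ± 0.18 on the log2 scale in Mettl3 KD (adjusted p = 3.1e-05) and by 1.35 ± 0.18 in Mettl14 KD (adjusted p = 2.06e-05, both by the edgeR quasi-likelihood test). Scramble replicate 2 had its highest level as well, and without that library the log2 fold changes were -1.08 ± 0.20 and -1.21 ± 0.20.

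Egln2, or PHD1, is the prolyl hydroxylase that is not induced by HIF in most cells. It had 96.2, 87.4, 96.1 and 95.7 CPM in Mettl3 KD libraries, 87.6, 96.0, 91.3 and 92.3 CPM in Mettl14 KD, and 86.9, 70.5 and 90.8 CPM in scramble. The groups overlapped, and scramble replicate 2 was the lowest of the 11 libraries. Its log2 fold change was 0.18 ± 0.07 in Mettl3 KD (adjusted p = 0.0874) and 0.15 ± 0.07 in Mettl14 KD (adjusted p = 0.188, both by the edgeR quasi-likelihood test); without scramble replicate 2 these values were 0.08 ± 0.04 and 0.05 ± 0.04. Without scramble replicate 3, the highest scramble library, Egln2 passed in both, at 0.26 (adjusted p = 0.0166) and 0.23 (adjusted p = 0.0436, edgeR). DESeq2 called Egln2 higher in Mettl3 KD at 0.18 (adjusted p = 0.0304). Fitted by edgeR with no filter on low counts, Egln2 passed as higher in both, at 0.18 in Mettl3 KD (adjusted p = 0.000221) and 0.15 in Mettl14 KD (adjusted p = 0.00483).

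Hif1an encodes FIH, which hydroxylates an asparagine of HIF alpha and so blocks its coactivator. Its level was 60.9, 67.4, 63.4 and 64.9 CPM in Mettl3 KD libraries, 68.3, 68.4, 67.6 and 65.8 CPM in Mettl14 KD, and 61.5, 54.9 and 64.3 CPM in scramble. Every Mettl14 KD library was above every scramble library, and Mettl3 KD overlapped both other groups. Hif1an rose by 0.16 ± 0.05 on the log2 scale in Mettl14 KD (adjusted p = 0.0166, edgeR quasi-likelihood test). That call ended without scramble replicate 2, the lowest library, at 0.10 ± 0.04 (adjusted p = 0.0774, same test), and under limma-voom, at 0.12 ± 0.04 (adjusted p = 0.0587). In Mettl3 KD its log2 fold change was 0.09 ± 0.05 (adjusted p = 0.158, edgeR quasi-likelihood test). It was 0.03 ± 0.04 (adjusted p = 0.651) without scramble replicate 2 and 0.15 ± 0.05 (adjusted p = 0.0355) without scramble replicate 3, by the same edgeR test.

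**Figure D3:**
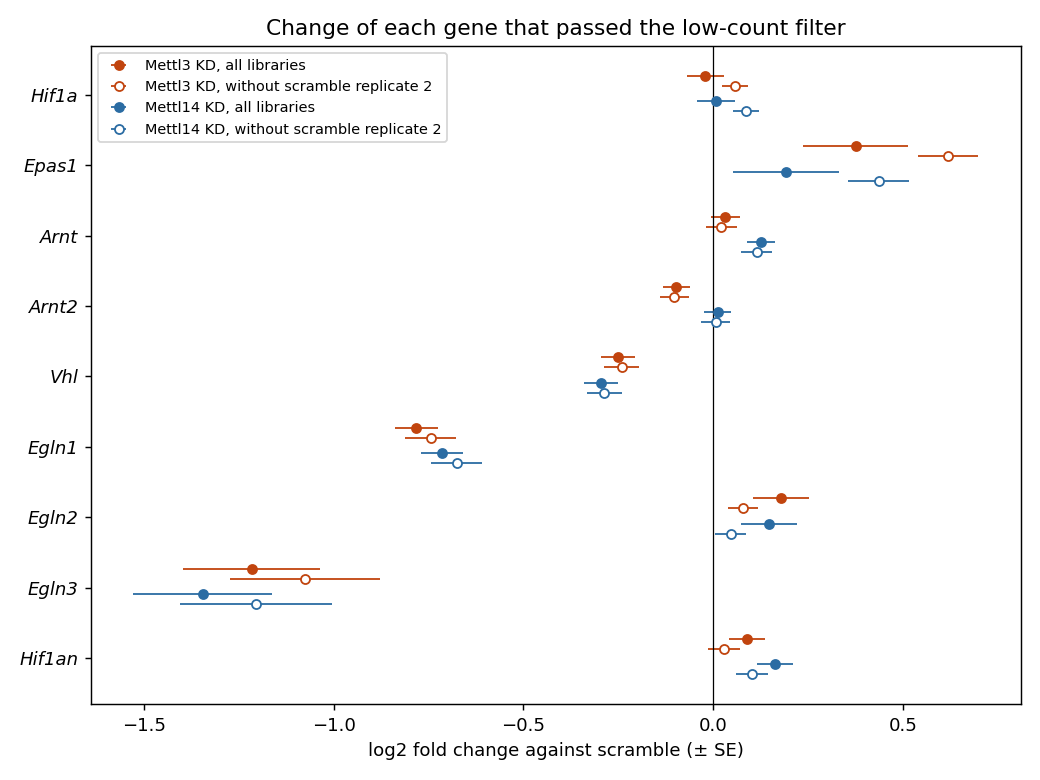
Log2 fold change against scramble (horizontal axis, ± SE from the edgeR fit) of the 9 members tested, in Mettl3 KD (red) and Mettl14 KD (blue), with all libraries (filled) and without scramble replicate 2 (open). Egln1, Egln3 and Vhl are below 0 in both knockdowns with and without that library, and Epas1 lies further above 0 without it, at 0.62 and 0.44.

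Between the knockdowns, the edgeR quasi-likelihood test called 1 of the 9 members, Arnt2, where 8.1% of all genes passed, 3.66% higher and 4.44% lower. Its Mettl3 KD libraries lay wholly below the Mettl14 KD libraries, as did 9.21% of all genes, with 8.43% wholly above. The log2 difference of Mettl3 KD from Mettl14 KD was -0.07 ± 0.05 for Egln1, 0.13 ± 0.19 for Egln3 and 0.05 ± 0.04 for Vhl. Their adjusted p were 0.521, 0.765 and 0.594 by the same test, which does not show that the knockdowns act alike. Epas1 was at 0.18 ± 0.12 in this comparison (adjusted p = 0.454, edgeR quasi-likelihood test), and at 0.18 ± 0.06 (adjusted p = 0.0351) when scramble replicate 2 was kept out of the shared estimate of spread. Arnt, at -0.09 ± 0.03 (adjusted p = 0.103, edgeR quasi-likelihood test), also passed without that library (adjusted p = 0.0497).

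Levels of different genes were compared as CPM per kilobase of the longest protein-coding transcript in GENCODE M21, which is an approximation because the isoforms counted are not known. In scramble the order from high to low was Egln1 at 61.1 ± 2.79, Egln2 at 39.3 ± 5.13, Hif1a at 31.2 ± 3.13, Vhl at 18.1 ± 0.330, Arnt at 14.02 ± 0.185, Arnt2 at 12.9 ± 0.210, Hif1an at 9.72 ± 0.775, Epas1 at 2.41 ± 0.674, Egln3 at 1.26 ± 0.211 and Hif3a at 0.00521 ± 0.00902 CPM per kilobase (SD, n = 3). Egln2 and Hif1a, neighbours in that order, overlapped between libraries, at 33.4 to 43.1 and 28.4 to 34.6, and no other neighbours down to Egln3 did. That overlap came from scramble replicate 2, with 33.4 for Egln2 and 34.6 for Hif1a; the other scramble libraries had 41.2 and 43.1 for Egln2, against 30.7 and 28.4 for Hif1a. Without replicate 2 the order of the scramble means was the same. The median over 13731 tested genes with a transcript in GENCODE M21 was 8.08 CPM per kilobase. Epas1 and Egln3 were below that median, and the other members tested were above it.

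On this scale the make-up of the prolyl hydroxylase mRNA differed between groups. Egln1 made up 44.1% ± 0.720 of the summed level of Egln1, Egln2 and Egln3 in Mettl3 KD and 45.8% ± 2.66 in Mettl14 KD, against 60.2% ± 4.03 in scramble (SD, n = 4, 4 and 3). Egln2 made up 55.2% ± 0.630 in Mettl3 KD and 53.6% ± 2.76 in Mettl14 KD, against 38.6% ± 4.25 in scramble. Egln2 was thus the higher of the pair per kilobase in all 8 knockdown libraries and Egln1 in all 3 scramble libraries. That order rests on the transcript lengths used, 3594 bases for Egln1 and 2107 for Egln2. In CPM without scaling by length, Egln1 was the higher in all 11 libraries, at no less than 119 CPM against at most 96.2 CPM for Egln2. The summed level was 80.6 ± 3.56 CPM per kilobase in Mettl3 KD and 81.3 ± 2.35 in Mettl14 KD, against 102 ± 2.33 in scramble, with no overlap between either knockdown and scramble. In scramble replicate 2 the Egln1 share was 64.8%, and in the other scramble libraries it was 58.4% and 57.4%. Without replicate 2 the scramble means were 57.9% for Egln1, 41.0% for Egln2 and 102.8 CPM per kilobase for the sum. With all libraries kept, the knockdown libraries did not overlap the scramble libraries in any of the 3.

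**Figure D4:**
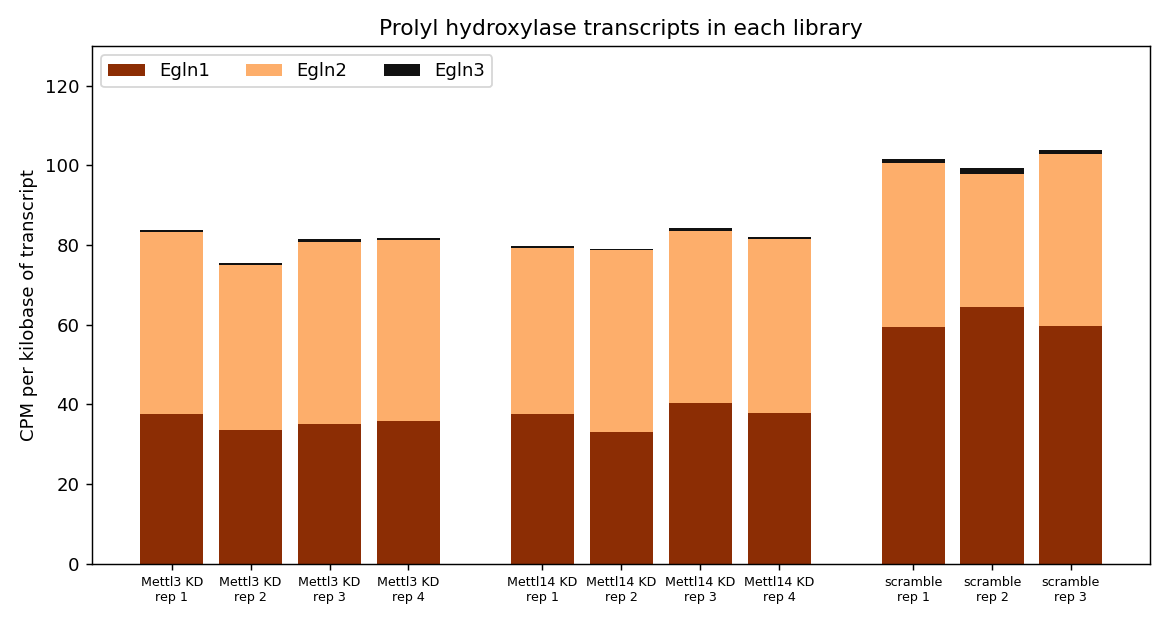
Stacked levels of Egln1, Egln2 and Egln3 (CPM per kilobase of transcript, vertical axis from 0) in each library of Mettl3 KD, Mettl14 KD and scramble. The scramble bars reach 99.3 to 104 and the knockdown bars 75.5 to 84.3; the Egln1 and Egln3 parts are both shorter in every knockdown bar than in every scramble bar, and most of the height difference is in Egln1.

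For the alpha subunits the summed level was 33.85 ± 0.886 CPM per kilobase in Mettl3 KD and 34.1 ± 0.855 in Mettl14 KD, against 33.6 ± 3.79 in scramble, and Hif1a was at least 90.4% of it in every library. For the beta subunits the sum was 26.4 ± 0.298 in Mettl3 KD and 28.3 ± 0.0970 in Mettl14 KD, against 26.9 ± 0.306 in scramble. The alpha sums of the knockdowns overlapped each other, at 32.91 to 34.95 in Mettl3 KD and 33.25 to 35.27 in Mettl14 KD. The scramble range overlapped them only through scramble replicate 2, at 37.8. The other scramble libraries, at 32.75 and 30.34, were below all knockdown libraries. Without scramble replicate 2 the scramble mean of the beta sum was 27.04.

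Genes that HIF is known to switch on were counted from a list of 28 that left out the 10 members. Of these, 25 passed the filter on low counts; Cox4i2, Car9 and Car12 did not. In Mettl3 KD 24 of the 25 fell and 0 rose, with a median log2 fold change of -0.78 against 0.00 over all genes, where 15.8% of all genes fell. In Mettl14 KD also 24 of the 25 fell and 0 rose, with a median of -0.86 against 0.00 over all genes, where 10.8% of all genes fell. The 1 not called was in both cases Pfkfb4, at -0.34 ± 0.13 and -0.24 ± 0.13 (adjusted p = 0.0586 and 0.223, edgeR quasi-likelihood test). Without scramble replicate 2 the medians were -0.79 and -0.86, and 24 of the list were lower in each comparison. Falls of glycolysis genes, Adm and Mgarp in these data were known when the list was put together, so it is not independent evidence of direction.

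Among those targets, Vegfa, the vessel growth factor, averaged 154 ± 3.19 CPM in Mettl3 KD, 165 ± 1.90 CPM in Mettl14 KD, and 249 ± 9.70 CPM in scramble. Ndrg1, a growth- and stress-regulated gene, averaged 49.3 ± 2.95 and 47.5 ± 3.35 CPM in the same knockdowns, against 107 ± 5.48 CPM in scramble. Bhlhe40, a transcriptional repressor, averaged 167 ± 5.14 and 177 ± 9.65 CPM, against 278 ± 7.03 CPM in scramble. Egln1, with log2 fold changes of -0.78 and -0.71, lay near the middle of the list's range, and Egln3, with -1.22 and -1.35, lay towards its lower end; the lowest was Adm, which encodes the peptide adrenomedullin, at -1.80 ± 0.11 and -1.82 ± 0.11. Aldoa, the glycolytic aldolase, fell by 0.57 ± 0.04 and 0.54 ± 0.04. All of these falls passed the edgeR quasi-likelihood test (largest adjusted p = 3.1e-05, that of Egln3 in Mettl3 KD).

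**Figure D5:**
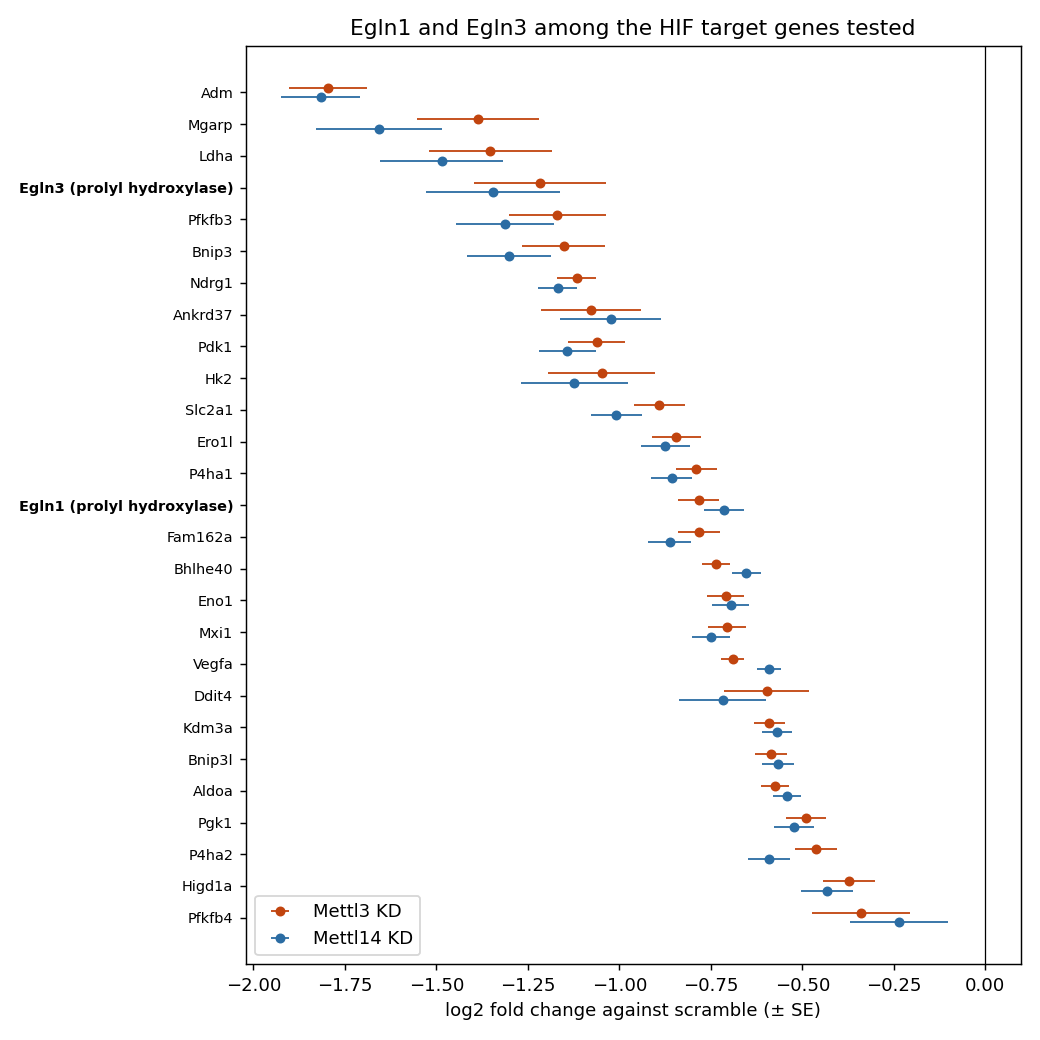
Log2 fold change against scramble (horizontal axis, ± SE) of the 25 HIF target genes tested and of Egln1 and Egln3 (labels in bold), in Mettl3 KD (red) and Mettl14 KD (blue), ordered by the Mettl3 KD value. Every point is below 0, and Egln1 and Egln3 lie within the range of the other genes.

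Other regulators of HIF were counted from a list of 23. Of 22 tested, 9 passed as higher and 2 as lower in Mettl3 KD (median log2 fold change 0.09), against 4 and 2 in Mettl14 KD (median 0.07); over all genes 15.5% and 10.1% were higher, and 15.8% and 10.8% were lower. The falls, 2 of 22 in each comparison, were near or below that background, and no result about the list is drawn from them. Among the rises were Sdhb at 0.30 ± 0.03 in both knockdowns and Fh1 at 0.14 ± 0.03 and 0.18 ± 0.03, which encode enzymes that use up succinate and fumarate, both inhibitors of the hydroxylases. Cited2, a HIF-inducible protein that competes with HIF for its coactivators, fell by 0.53 ± 0.07 and 0.50 ± 0.07, and Eif4ebp1, a brake on translation, by 0.29 ± 0.06 and 0.46 ± 0.06 (all adjusted p at most 0.00173, edgeR quasi-likelihood test). The partners of VHL in the ligase, Elob, Eloc, Cul2 and Rbx1, were not among the genes that fell. Cul2 and Rbx1 rose by 0.11 ± 0.04 and 0.12 ± 0.04 in Mettl3 KD (adjusted p = 0.0295 and 0.0238, edgeR quasi-likelihood test), Elob and Eloc were at 0.08 ± 0.03 and 0.07 ± 0.04 there, and none of the 4 passed in Mettl14 KD. These partners were singled out after their values were seen. Without scramble replicate 2, 5 of the regulators were higher in Mettl3 KD and 3 in Mettl14 KD.

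Of 11 relatives of the HIF subunits in the bHLH-PAS family of transcription factors, 4 passed the filter on low counts. Arntl, the clock factor also called BMAL1, fell by 0.21 ± 0.04 in Mettl3 KD (adjusted p = 0.000983, edgeR quasi-likelihood test) and was at -0.01 ± 0.04 in Mettl14 KD. The other 3, Clock, Sim1 and Npas4, passed in neither comparison with scramble. Between the knockdowns 2 of these 4 were lower in Mettl3 KD, where 4.44% of all genes were. They were Arntl, at -0.19 ± 0.04, and Npas4, at -0.55 ± 0.16 (adjusted p = 0.00431 and 0.0317, edgeR quasi-likelihood test). Npas4 was a low transcript, with group means of 1.76 (Mettl3 KD), 2.58 (Mettl14 KD) and 2.30 (scramble) CPM. DESeq2 and edgeR with a replicate block each called only 1 of the relatives lower, as did some fits that left out 1 library. Like Arnt2, Arntl was thus lower in Mettl3 KD than in either other group.

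The genes whose log2 CPM followed Egln1 most closely over the 11 libraries, among 9343 genes with a mean of at least 10 CPM, were Bhlhe40 (Pearson r = 0.99), the lipid synthesis regulator Srebf1 (0.99) and the glycolytic enolase Eno1 (0.988). For Egln3 they were G2e3 (0.977), Fer1l6 (0.974) and Phf10 (0.973). For Hif1a they were Spred1 (0.925), Zfp280c (0.911) and Tbc1d2b (0.904). These likenesses are descriptions: the 11 points share their libraries and fall into 3 groups, so any genes that differ between the groups in the same way score high. Hif1a itself had similar group means, at 145 CPM in Mettl3 KD, 148 CPM in Mettl14 KD and 147 CPM in scramble. Its highest library was scramble replicate 2, at 163 CPM, and its likenesses were not computed without that library.

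The sequence GGACT, the commonest form of the N6-methyladenosine motif, was counted on the sense strand of the longest protein-coding transcript of each member. Egln1 had 4 copies, Egln3 had 3 and Vhl had 2, which is 1.11, 1.13 and 0.716 per kilobase, against a median of 1.03 over 13731 genes. Epas1 had 9 copies, 1.63 per kilobase, and Hif1a 4, 0.847 per kilobase. Arnt had 1 copy in a transcript of 4325 bases, the lowest density of the members at 0.231 per kilobase. The motif says nothing of whether a site was methylated, and methylation is not analysed here.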

How the data were processed

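The authors deposited 1 table of estimated counts (expected counts) per gene and library, made with kallisto per the submitters' processing notes, which name no version. No source used here names the build, the annotation or the way transcripts were summed. Of the values 11.6% were not whole, and all were rounded. Of 53947 rows, 48651 matched a symbol; 0 columns belonged to other samples. For Aldoa, with 2 rows, the row with more counts was used.

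Genes kept by filterByExpr (minimum count 10) were TMM-scaled and tested together in all 11 libraries with edgeR 4.0.16 (R 4.3.3, robust quasi-likelihood F-test), adjusted by Benjamini-Hochberg over 14133 genes, threshold 0.05. The SE of a log2 fold change was approximated from its size and F. Values after ± are SD for levels and SE for log2 fold changes. The code was tested on simulated data. Alternatives used DESeq2 1.42.0, limma 3.58.1, other scaling and filters, and fits without single libraries.

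Groups and replicate numbers came from sample titles. Whether replicates were separate cultures is not labelled; if not, the p-values reflect technical spread alone. Replicate pairs all differed beyond sampling noise, with chi-square at least 2.11 per degree of freedom. The pairs with scramble replicate 2 stood highest, at 15.3 and 13.8, against at most 3.87 for any other pair. The deposited library totals, 19576632 to 22406527, limit precision mainly for Egln3 and Hif3a.

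The members and all gene lists were chosen with earlier results of these data known. Named were the members, Mettl3 and Mettl14, up to 4 called genes per list with the smallest adjusted p in each comparison with scramble, and the 3 genes most like Egln1, Egln3 and Hif1a. Pfkfb4, Clock, Sim1, Npas4 and the VHL ligase partners were named after their values were seen.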

Additional observations from a re-analysis of the deposited data

Results flagged for a closer look

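Egln2 in Mettl3 KD replicate 2 was far from the other libraries of its group, at 87.38 CPM against 95.7 to 96.2 CPM in the other 3. Of 20 groups of 4 libraries looked at, chance would mark about 1 in this way. With all libraries and the filter on low counts, Egln2 passed the edgeR test in neither comparison with scramble. It passed as higher in both with no filter.

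Arnt2 differed between the knockdowns by a test of the difference itself. The log2 fold change of Mettl3 KD over Mettl14 KD was -0.11 ± 0.03 (adjusted p = 0.0472, edgeR), and all 4 Mettl3 KD libraries were below all 4 Mettl14 KD libraries, where 17.6% of all genes had groups that did not overlap. Over the fits that left out 1 library, the adjusted p from edgeR was 0.0135 to 0.139.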

How the results depend on the processing

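Scaling by RLE changed no call named here. The falls of Egln1, Egln3 and Vhl passed in each of the 11 fits without 1 library, in both knockdowns. Mettl3 KD against scramble had 0 members higher; DESeq2 and no filter gave 2, a replicate block and voom with quality weights 1, and fits without 1 library 0 to 2. Of the HIF regulators 9 were higher; the block, voom and the fit of only these groups gave 5, and fits without 1 library 5 to 11. Of the bHLH-PAS relatives 1 was lower and 0 higher; no filter gave 2 lower, voom 1 higher, and fits without 1 library 0 to 1 higher. Hif1a turned to 0.0426 under voom and ranged from -0.0768 to 0.0583 without 1 library.

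Mettl14 KD against scramble had 4 regulators higher; no filter, the block and the fit of only these groups gave 2, and fits without 1 library 2 to 4. Members higher were 2, and 1 to 3 without 1 library. Without 1 library Hif1a ranged from -0.0488 to 0.0868 and Arnt2 from -0.00181 to 0.034.

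Mettl3 KD against Mettl14 KD depended most on the setting. Genes called higher and lower over all genes were 517 and 628; voom gave 886 and 982, the fit of only these groups 1068 and 1119, and fits without 1 library 278 to 1034 and 414 to 1091. Members lower were 1 (Arnt2); DESeq2, no filter and the block gave 0, voom 2, and fits without 1 library 0 to 2. Members higher were 0; the fit of only these groups gave 1, and fits without 1 library 0 to 1. Regulators higher were 0; no filter and voom gave 2, the fit of only these groups 3, and fits without 1 library 0 to 3. Targets higher were 0, and 1 with no filter and in the fit of only these groups. Targets lower were 1; no filter and the block gave 0, and fits without 1 library 0 to 1. Relatives lower were 2; DESeq2 and the block gave 1, and fits without 1 library 1 to 2. The cause of these differences was not tested.

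The replicate numbers did not pair the libraries: deviations of same-numbered libraries correlated at -0.118 to 0.0674, and the best match had the same number in 6 of 20 combinations. Low counts limit Egln3, and Hif3a could not be tested.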
